A study of Homo sapiens with 24 samples.

Results

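HCC1806 cells that had doubled their genome through failed cytokinesis were compared with their parental population, 3 libraries against 3 of the 24 libraries in the series. HCC1806 is an established line of triple-negative breast cancer with basal and squamous epithelial features. The doubled population had failed to divide after mitosis, was isolated by fluorescence-activated cell sorting and was then expanded. The parental aneuploid population was kept as the control. Populations of the same line doubled by mitotic slippage (leaving mitosis without dividing) or by cell fusion, with 3 libraries each, and the corresponding populations of MDA-MB-231, a triple-negative line with mesenchymal features, served only to show where the response to cytokinesis failure differed. All groups were grown for 48 hours after seeding at 200000 cells per well, with no further treatment, and RNA amounts were made equal before library preparation. The labels do not say whether the 3 replicates of a route were sorted separately or were wells of a single expanded population, so replicate error may not cover the difference between independently derived populations, and route, sorting and expansion cannot be told apart. No gene was deleted or silenced in any group. The labels do not give the agent used to block cytokinesis, and no library here measures ploidy.

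Cytokinesis is the final step of division, in which a ring of actin and myosin narrows the cell between the separated chromosomes and the membrane is cut at the midbody. When it fails, the cell re-enters G1 with a doubled genome and an extra centrosome. Growth factor receptors such as EGFR signal through RAS and the kinase ERK. ERK induces immediate early transcription factors (EGR1, FOSL1, MYC) and, with them, phosphatases and Sprouty proteins that damp the same signal, so that the RNA of these feedback genes is widely read as a record of pathway output. NF-kB is the other inducible factor prominent in basal breast cancer lines, where it drives cytokines and its own inhibitors. Basal epithelial cells are tied to the basement membrane by hemidesmosomes, which join keratins to laminin through integrins and are also remodelled downstream of growth factor signals.

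TAGseq reads 1 tag near the 3′ end of a polyadenylated transcript, and the level used here is CPM, tag counts scaled to a common library size with TMM factors. The 3 cytokinesis failure libraries held 3829221 to 4030292 counts and the 3 control libraries 3060629 to 3811138. Replicates of the 4 HCC1806 populations differed by 1.34 to 1.63 times the variance that counting alone gives (chi-square per degree of freedom), so no pair agreed within counting error. On the first principal component of the 12 libraries (21.6% of the variance) cytokinesis failure lay at -23.38 to -14.38, slippage at -5.98 to -2.92, fusion at 14.74 to 16.24 and control at 6.25 to 12.03. The summed level of 6 genes of basal epithelial identity (KRT5, KRT14, KRT17, TP63, CDH1, EPCAM) was 1226 to 1256 CPM after cytokinesis failure and 1275 to 1323 CPM in control, and vimentin (VIM), a mesenchymal filament, was at 0 to 0.261 CPM after cytokinesis failure and at 0.82 to 1.84 CPM in control. Markers of fibroblasts summed to 30.6 to 31.8 CPM after cytokinesis failure and 29.7 to 41.3 CPM in control, with COL1A2, COL3A1 and PDGFRA at 0 in both. Immune markers summed to 27.7 to 35.0 CPM after cytokinesis failure and 38.8 to 41.2 CPM in control. CD3E, CD3D, LYZ, NKG7 and MS4A1 were at 0 in both groups, and the sum was mostly CD68, a lysosomal protein that fell by 0.45 ± 0.11. Endothelial markers reached at most 0.783 CPM after cytokinesis failure and 0.262 CPM in control.

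Of 11467 genes tested, 1950 (17.0%) differed between cytokinesis failure and control at a Benjamini-Hochberg adjusted p below 0.05 in edgeR's quasi-likelihood test, the rule used for every call below. The calls were divided between 960 genes that rose (8.37%) and 990 that fell (8.63%), and the median change over all tested genes was 0.0016 on the log2 scale. Changes of at least 2-fold were made by 178 called genes, 54 of them higher and 124 lower. With limma on log2(TPM + 1) the split was 853 higher and 453 lower. Because RNA was equalised and cells were measured in bulk, fewer cells expressing a gene and less RNA of it per cell cannot be told apart. Changes below are log2 fold changes of cytokinesis failure over control with their standard error (SE) after ±, and means are given with their SD over 3 libraries.

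Among the genes with the largest changes, METTL7A, a lipid droplet methyltransferase, had 16.7, 16.2 and 16.3 CPM in the cytokinesis failure libraries, against 3.54, 2.65 and 3.88 CPM in the control libraries. The change was 2.25 ± 0.24. The largest changes were named only where the libraries of the groups did not overlap, so that separation is no added support. SNCG (gamma-synuclein) rose by 1.46 ± 0.10, BCAM, a receptor for laminin alpha-5, by 1.46 ± 0.16, MAP2K6, the kinase that activates p38, by 1.60 ± 0.31, and the transcription factor SOX6 by 1.26 ± 0.30. At the other end DHRS9, a retinol dehydrogenase, had 2.49, 3.13 and 3.95 CPM after cytokinesis failure, against 20.1, 20.6 and 20.7 CPM in control. It fell by 2.67 ± 0.22. SLC16A9, a carnitine exporter, fell by 2.35 ± 0.27, ANTXR2, a receptor for collagen and for anthrax toxin, by 2.04 ± 0.29, G0S2, an inhibitor of triglyceride breakdown, by 2.14 ± 0.19, FYB, an adaptor protein, by 2.11 ± 0.11, and the heparan sulphate sulfotransferase HS3ST1 by 1.63 ± 0.18. These genes belong to no single list.

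**Figure D1:**
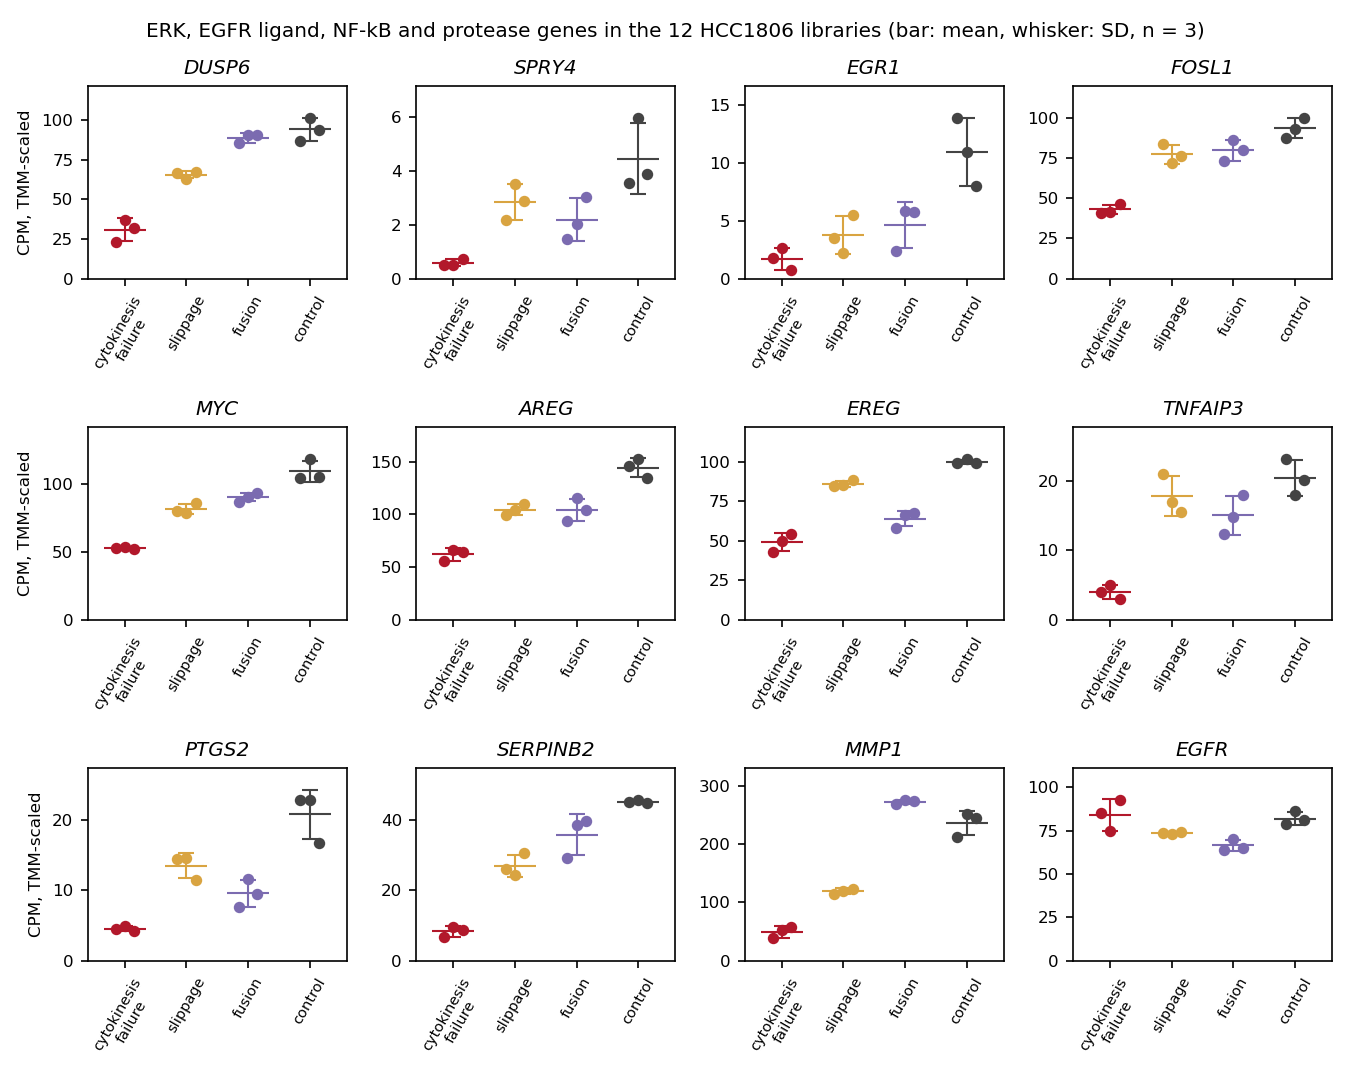
Level of 12 genes in the 12 HCC1806 libraries (CPM, TMM-scaled; 1 point per library, bar for the mean and whisker for the SD, n = 3 per population). For DUSP6, SPRY4, FOSL1, MYC, AREG, EREG, TNFAIP3, PTGS2, SERPINB2 and MMP1 all 3 cytokinesis failure libraries lie below the 9 others, while EGFR overlaps with control.

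The RNA of most ERK feedback genes was lower after cytokinesis failure. Of 17 tested members of the list, 11 fell and 1 rose, against 8.63% and 8.37% of all genes, and the median change was -0.48. DUSP6, the phosphatase that removes the activating phosphates from ERK in the cytoplasm (chromosome 12, 89347235 to 89352501 in GRCh38), had 22.9, 37.3 and 32.1 CPM in the cytokinesis failure libraries, against 87.1, 101 and 94.2 CPM in the control libraries. DUSP6 fell by 1.61 ± 0.092. SPRY4, a Sprouty protein that blocks the path between receptor and RAS, had 0.498, 0.522 and 0.741 CPM after cytokinesis failure, against 3.54, 5.97 and 3.88 CPM in control. It was near the limit of detection in each cytokinesis failure library, and its fall of 2.82 ± 0.49 is correspondingly uncertain in size. The nuclear phosphatases moved with DUSP6: DUSP4 averaged 9.16 ± 0.615 CPM after cytokinesis failure and 23.6 ± 1.19 CPM in control (SD, n = 3 each), a change of -1.36 ± 0.16, and DUSP5 averaged 12.5 ± 0.990 CPM after cytokinesis failure and 26.2 ± 0.595 CPM in control, a change of -1.06 ± 0.15. PHLDA1, induced by ERK in many epithelial cells, fell by 0.79 ± 0.057. EPHA2, a receptor tyrosine kinase whose gene is an ERK target, fell by 0.37 ± 0.051, and the ETS factor ETV4 by 0.48 ± 0.097. The exception in the list was DUSP10, a phosphatase that prefers p38 and JNK over ERK. It had 35.1, 32.9 and 30.4 CPM after cytokinesis failure and 22.0, 20.6 and 20.2 CPM in control, a rise of 0.65 ± 0.13.

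Immediate early factors showed the same direction: 12 of 21 tested members fell and 1 rose (median -0.29), and 8 fell and none rose in DESeq2. EGR1, a zinc finger factor transcribed within minutes of ERK activation, had 1.74, 2.61 and 0.741 CPM in the cytokinesis failure libraries, against 13.9, 10.9 and 8.02 CPM in control. The control libraries varied most, and the change was -2.67 ± 0.33. FOSL1 (FRA-1), the AP-1 partner whose protein is stabilised by ERK, had 41.1, 41.7 and 46.5 CPM after cytokinesis failure, against 87.6, 93.2 and 99.8 CPM in control. Here replicates were close, and FOSL1 fell by 1.12 ± 0.081. MYC had 52.8, 53.5 and 51.9 CPM after cytokinesis failure and 105, 119 and 106 CPM in control. This was a fall of 1.05 ± 0.073, and each of the 3 libraries lay near the level of the others in its group. JUN fell by 0.55 ± 0.10, IER2 by 0.50 ± 0.078, the small MAF protein MAFF by 1.39 ± 0.25 and IER3, a survival factor induced by both ERK and NF-kB, by 0.88 ± 0.053.

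The sequence before the EGR1 start is shown because the gene is a textbook target of serum response factor, which binds CArG boxes together with ETS proteins that ERK phosphorylates. It covers the 250 bases before the annotated start in RefSeq on GRCh38.p14 (chr5:138465229-138465478, plus strand, 5′ to 3′), with the CArG boxes found by a search of both strands in capitals.
EGR1: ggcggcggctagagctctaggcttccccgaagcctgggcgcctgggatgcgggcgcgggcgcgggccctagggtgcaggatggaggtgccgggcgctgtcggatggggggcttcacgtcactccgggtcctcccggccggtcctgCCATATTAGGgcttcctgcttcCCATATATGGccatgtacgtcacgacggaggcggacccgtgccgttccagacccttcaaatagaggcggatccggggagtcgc
Matches began 105 and 83 bases before the start. A CArG box was present in 0.951% of the 250-base windows of the 9144 tested genes that have an entry. A match describes the letters only, and binding was not measured.

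**Figure D2:**
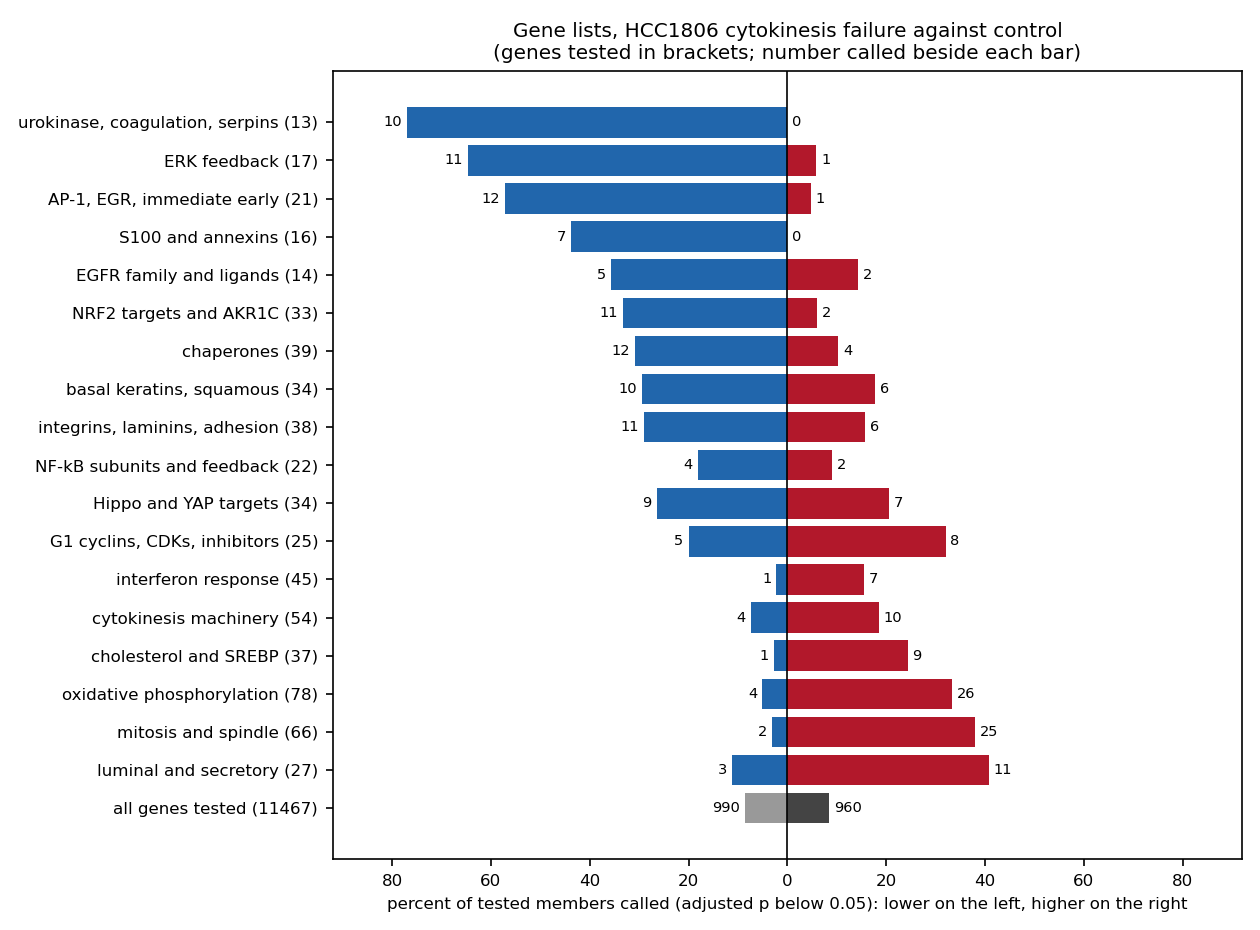
Share of tested list members called lower (left, blue) or higher (right, red) after cytokinesis failure against control, in percent, with the number called beside each bar and the number tested in brackets. Urokinase system, ERK feedback and immediate early genes lie to the lower side, mitosis, oxidative phosphorylation and luminal genes to the higher side, and the grey bars give 8.63% and 8.37% over all tested genes.

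Genes for 5 EGFR ligands were lower, and that of the receptor was not called. The list of EGFR family genes and ligands had 5 tested members that fell and 2 that rose out of 14, with a median of 0.052. ERBB2 rose by 0.34 ± 0.10 and ERRFI1, which is neither receptor nor ligand, by 0.36 ± 0.12, calls lost in DESeq2. All 5 falling genes were ligands. AREG (amphiregulin, chromosome 4, 74445136 to 74455005) had 55.3, 66.2 and 64.5 CPM in the cytokinesis failure libraries, against 146, 152 and 134 CPM in the control libraries. The groups stood well apart, with a fall of 1.22 ± 0.072. EREG (epiregulin) had 43.1, 49.8 and 54.4 CPM after cytokinesis failure, against 99.6, 102 and 99.3 CPM in control, and fell by 1.03 ± 0.077. HBEGF fell by 0.94 ± 0.17, EPGN (epigen) by 1.06 ± 0.20 and TGFA by 0.60 ± 0.083, and in each the 3 cytokinesis failure libraries lay below the 3 control libraries. EGFR itself had 85.2, 74.6 and 92.7 CPM after cytokinesis failure and 78.6, 86.2 and 81.0 CPM in control, overlapping ranges with a change of 0.044 ± 0.073 (edgeR adjusted p = 0.739). AREG, EREG, EPGN and the chemokine genes CXCL1 and IL8 lie within a short stretch of chromosome 4, 73740569 to 74455005, on an arm whose median gene was also lower (4q, described with the chromosome arms). In the 20 Mb window that holds them, from 60 to 80 Mb, 9 of 40 tested genes fell and 1 rose, with a median change of -0.13, and the part of the arm in the fall of these ligands was not tested. HBEGF (chromosome 5) and TGFA (chromosome 2) lie elsewhere.

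The window before AREG is printed because AREG transcription is known to respond to cyclic AMP through a CRE, whose core TGACGTCA is in capitals (RefSeq, GRCh38.p14, chr4:74444886-74445135, plus strand).
AREG: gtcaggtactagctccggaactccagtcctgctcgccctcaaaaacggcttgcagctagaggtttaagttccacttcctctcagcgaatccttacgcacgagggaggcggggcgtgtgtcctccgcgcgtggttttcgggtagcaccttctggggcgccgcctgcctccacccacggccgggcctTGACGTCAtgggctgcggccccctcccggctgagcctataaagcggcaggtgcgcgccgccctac
The single match began 65 bases before the start. TGACGTCA, a palindrome that reads the same on both strands, occurred in 3.01% of the 9144 windows.

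NF-kB feedback genes and cytokines held some of the deepest falls, although most tested members were not called. Of 22 tested subunits and feedback genes 4 fell and 2 rose, and of 16 tested targets and cytokines 4 fell and 1 rose. DESeq2 left 2 lower in the first list and 3 in the second, with none higher in either. TNFAIP3 (A20, chromosome 6, 137866349 to 137883312), the ubiquitin-editing enzyme that shuts off NF-kB signalling and is itself an NF-kB target, had 3.98, 4.96 and 2.96 CPM in the cytokinesis failure libraries, against 23.1, 17.9 and 20.2 CPM in control. The change was -2.37 ± 0.21. RELB, the subunit of the alternative NF-kB pathway, averaged 2.00 ± 0.618 CPM after cytokinesis failure and 5.27 ± 1.55 CPM in control and fell by 1.40 ± 0.35. Among secreted factors, IL1A had 6.47, 3.13 and 6.67 CPM after cytokinesis failure, against 14.2, 18.9 and 11.9 CPM in control, a fall of 1.43 ± 0.22. The neutrophil chemokines CXCL1 and IL8 (CXCL8) fell by 1.76 ± 0.39 and 1.12 ± 0.23. CXCL1 was scarce, with 0.996, 1.83 and 1.48 CPM after cytokinesis failure and 4.08, 4.31 and 6.21 CPM in control, so its size rests on few reads.

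The windows of TNFAIP3 and CXCL1 are given because both genes carry well known kappaB sites, here in capitals (RefSeq, GRCh38.p14, plus strand, chr6:137867009-137867258 and chr4:73869143-73869392). The TNFAIP3 window precedes a start annotated inside the gene's span.
TNFAIP3: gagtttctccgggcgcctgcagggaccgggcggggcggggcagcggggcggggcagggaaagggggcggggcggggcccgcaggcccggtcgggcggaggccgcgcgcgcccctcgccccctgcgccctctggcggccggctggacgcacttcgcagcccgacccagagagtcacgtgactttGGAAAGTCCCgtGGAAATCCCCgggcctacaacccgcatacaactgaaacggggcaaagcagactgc
CXCL1: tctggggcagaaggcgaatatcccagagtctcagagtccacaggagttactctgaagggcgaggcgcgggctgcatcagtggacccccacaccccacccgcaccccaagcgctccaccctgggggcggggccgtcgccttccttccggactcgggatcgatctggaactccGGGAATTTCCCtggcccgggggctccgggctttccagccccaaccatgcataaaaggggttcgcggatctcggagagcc
TNFAIP3 held matches beginning 67 and 55 bases before the start. In CXCL1 the match at 79 bases overlaps the one at 78 bases, since 1 site matches on both strands. Windows with a kappaB match made up 11.5% of the 9144, so that such letters are common.

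In the prostaglandin pathway a gene of synthesis fell and a gene of breakdown rose. PTGS2 (cyclooxygenase-2), which makes the precursor of prostaglandins, had 4.48, 4.96 and 4.20 CPM in the cytokinesis failure libraries, against 22.9, 22.9 and 16.8 CPM in control. It fell by 2.18 ± 0.20. HPGD, the dehydrogenase that inactivates prostaglandin E2, had 4.98, 5.48 and 2.96 CPM after cytokinesis failure, against 1.36, 2.32 and 0.776 CPM in control, and rose by 1.62 ± 0.41. The pathway list as a whole had 1 member higher and 2 lower out of 8 tested.

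The urokinase and coagulation list had the highest share of falling genes: 10 of 13 tested members fell, none rose, and the median was -0.63. Urokinase (PLAU), the protease that activates plasminogen at the cell surface, had 21.9, 23.2 and 25.9 CPM after cytokinesis failure, against 47.4, 47.7 and 44.5 CPM in control, and fell by 0.97 ± 0.11. Genes of serpin protease inhibitors fell with it. SERPINB2 (PAI-2, chromosome 18, 63887705 to 63903888) had 6.72, 9.65 and 8.65 CPM after cytokinesis failure, against 45.2, 45.7 and 45.0 CPM in control, where the libraries were nearly equal, and fell by 2.44 ± 0.15. SERPINE2 fell by 1.06 ± 0.14 and SERPINB5 (maspin) by 0.24 ± 0.051, which was not called with limma on log2(TPM + 1). Tissue factor (F3), which starts the coagulation cascade, fell by 0.56 ± 0.037, and thrombomodulin (THBD), which restrains it, fell by 1.89 ± 0.42. The falling genes thus include a protease and protease inhibitors, and activity was not measured.

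MMP1, the interstitial collagenase, had 38.1, 52.4 and 57.1 CPM in the cytokinesis failure libraries, against 212, 251 and 246 CPM in control. The fall of 2.26 ± 0.089 is among the largest, while 2 of 11 tested metalloproteinases and inhibitors fell in all, with none higher. That share, 18.2%, is near the 17.0% of all genes called in either direction. HAS2, which synthesises hyaluronan at the plasma membrane, had 9.21, 6.26 and 6.92 CPM after cytokinesis failure, against 28.8, 35.8 and 32.9 CPM in control. Its fall was 2.11 ± 0.16. CD44, the hyaluronan receptor, averaged 1041 ± 32.5 CPM after cytokinesis failure and 1490 ± 22.5 CPM in control, a change of -0.52 ± 0.033.

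Adhesion genes changed in both directions. Of 38 tested integrins, laminins and adhesion genes 11 fell and 6 rose, with a median of -0.12. Chains of the laminin that anchors basal epithelium were among the falling genes. LAMB3 had 154, 155 and 159.6 CPM in the cytokinesis failure libraries, against 318, 353 and 308 CPM in control, a change of -1.06 ± 0.052. LAMA3 averaged 49.1 ± 1.37 CPM after cytokinesis failure and 77.9 ± 1.21 CPM in control and fell by 0.67 ± 0.080. The hemidesmosome that binds this laminin was changed in part: ITGA6 fell by 0.51 ± 0.042, COL17A1 (the BP180 transmembrane collagen) by 0.59 ± 0.046 and the keratin linker PLEC by 0.52 ± 0.063, whereas ITGB4 (0.010 ± 0.082) and DST (-0.11 ± 0.042) were not called. ITGA2, the collagen-binding chain, fell by 1.17 ± 0.084, and ITGB1, its partner, by 0.24 ± 0.041, a call lost with limma on log2(TPM + 1). ITGB1 lies on 10p, where the median change was -0.15 over the arm and -0.030 in its own 20 Mb window. Chains of other laminins rose, LAMA5 by 0.76 ± 0.084 and LAMB1 by 0.44 ± 0.059, as did BCAM (above), the receptor of laminin alpha-5. Tenascin-C (TNC) rose by 0.92 ± 0.21 and fibronectin (FN1) fell by 0.68 ± 0.17, a call lost with limma on log2(TPM + 0.1).

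LAMA3 is shown for its AP-1 sites, the motif bound by AP-1 factors (RefSeq, GRCh38.p14, chr18:23872770-23873019, plus strand). The window precedes a start inside the gene, and TGACTCA or its reverse complement TGAGTCA is in capitals.
LAMA3: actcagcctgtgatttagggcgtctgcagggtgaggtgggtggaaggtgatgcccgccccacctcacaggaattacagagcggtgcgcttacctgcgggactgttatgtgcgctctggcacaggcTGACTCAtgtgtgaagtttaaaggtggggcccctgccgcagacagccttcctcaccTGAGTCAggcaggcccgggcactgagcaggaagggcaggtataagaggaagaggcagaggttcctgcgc
The sites began 125 and 69 bases before that start. The motif, searched on both strands, was found in 2.46% of the 9144 windows. Here too a match describes the letters only, and a link to the fall of LAMA3 was not tested.

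**Figure D3:**
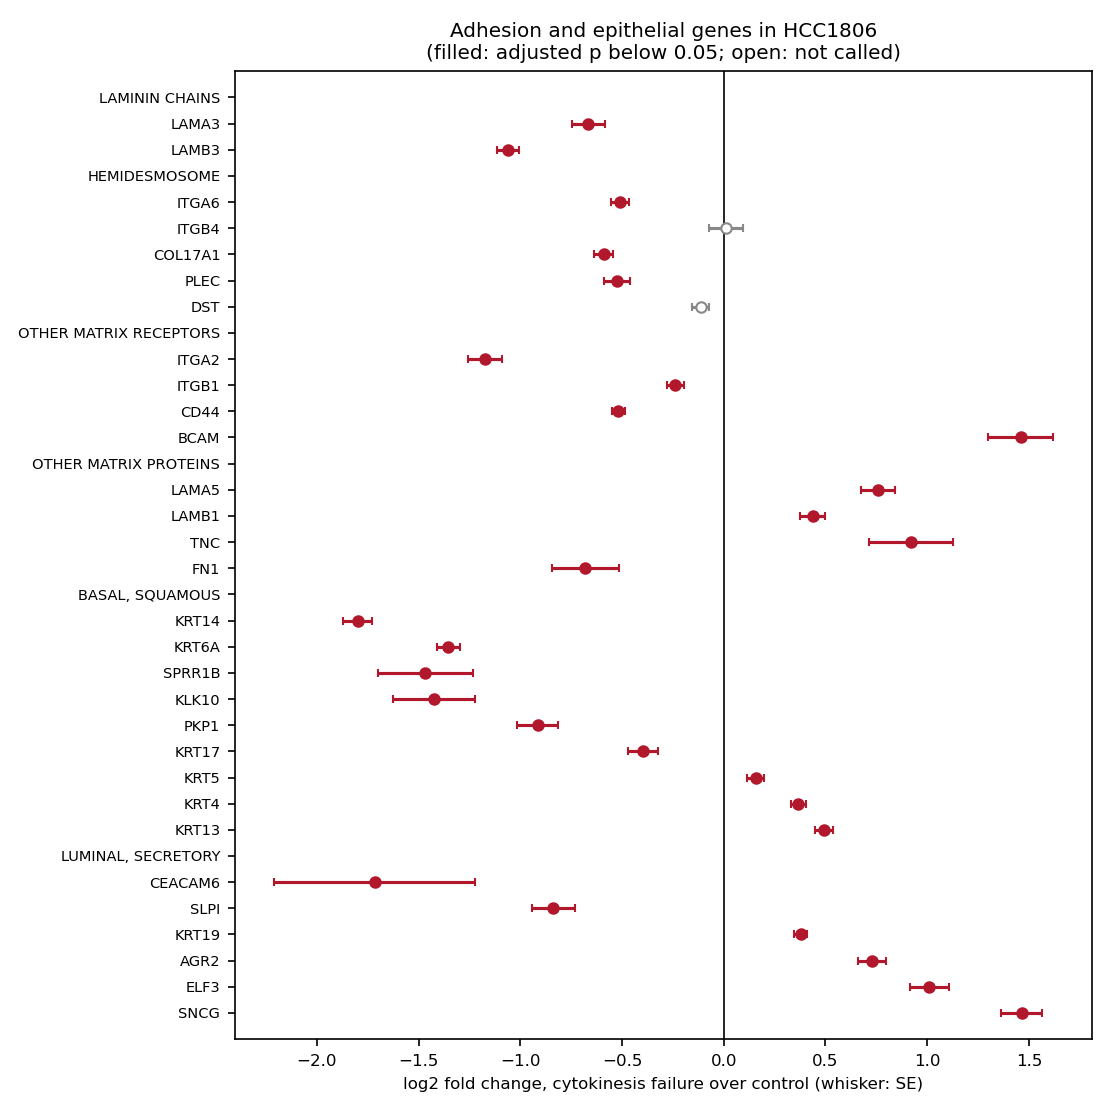
Log2 fold change of cytokinesis failure over control (x axis) for adhesion, basal and luminal genes, with the SE as whisker. Filled points are called and open points (ITGB4, DST) are not. LAMA3 lies at -0.67 and LAMB3 at -1.06, LAMA5 and BCAM to the right of 0, KRT14 at -1.80 and SNCG at 1.46.

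Of the genes called in the basal and squamous list more fell than rose, and in the luminal and secretory list more rose than fell. In the basal list 10 of 34 tested members fell and 6 rose, with a median of -0.11. KRT14, the keratin of basal keratinocytes (chromosome 17, 41582279 to 41586895), had 50.3, 44.3 and 40.5 CPM in the cytokinesis failure libraries, against 164, 152 and 154 CPM in control. KRT14 fell by 1.80 ± 0.072. KRT6A, a keratin induced in wounded and hyperproliferative epithelium, had 102, 100.4 and 122 CPM after cytokinesis failure, against 274, 278 and 278 CPM in control, and fell by 1.35 ± 0.056. SPRR1B, a cornified envelope precursor, fell by 1.47 ± 0.23, the protease KLK10 by 1.42 ± 0.20, the desmosomal PKP1 by 0.91 ± 0.099, SFN (14-3-3 sigma) by 0.50 ± 0.053 and KRT17 by 0.40 ± 0.074. Not all basal genes moved with KRT14. TP63, the master factor of basal cells, had a change of 0.016 ± 0.12 and was not called, and KRT13 and KRT4, keratins of the layers above the basal layer in wet squamous epithelium, rose by 0.49 ± 0.045 and 0.37 ± 0.037. KRT5, the usual partner of KRT14, rose by 0.16 ± 0.043, a call that was lost without replicate 3 of cytokinesis failure.

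In the luminal and secretory list 11 of 27 tested members rose and 3 fell, with a median of 0.20. ELF3, an epithelium-specific ETS factor, had 65.5, 59.7 and 63.0 CPM after cytokinesis failure, against 29.4, 32.1 and 32.1 CPM in control. It rose by 1.01 ± 0.095. AGR2, a disulphide isomerase of secretory cells, rose by 0.73 ± 0.070 and KRT19 by 0.38 ± 0.033. SLPI, a secreted protease inhibitor, went the other way and fell by 0.84 ± 0.11. CEACAM6 fell by 1.72 ± 0.50, a call lost in DESeq2 and without replicate 3 of cytokinesis failure. Of 31 tested junction genes 3 were higher and 2 lower, a share of 16.1%, near the 17.0% of all genes tested. CLDN1 and CLDN4 of the tight junction rose by 0.46 ± 0.064 and 0.42 ± 0.063. Among 22 tested mesenchymal genes 5 rose and 2 fell, the tropomyosins TPM1 (0.65 ± 0.053) and TPM2 (0.45 ± 0.053) among the higher and TGFBI (-0.67 ± 0.069) among the lower.

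Of the mitotic genes called, nearly all rose, by small amounts. Of 66 tested members 25 rose and 2 fell, with a median of 0.13, and 15 rose and 1 fell in DESeq2. CCNB1 (cyclin B1) had 289, 296 and 294 CPM in the cytokinesis failure libraries, against 240.3, 242 and 216 CPM in control. The libraries did not overlap, yet the rise was only 0.33 ± 0.048. The spindle protein DLGAP5 rose by 0.37 ± 0.056, the checkpoint kinase TTK by 0.40 ± 0.081, the kinetochore protein NDC80 by 0.33 ± 0.064 and the microtubule bundler NUSAP1 by 0.24 ± 0.045. CENPE, the kinetochore motor, fell by 0.25 ± 0.050, a call lost with limma on log2(TPM + 1). It lies on 4q, in a 20 Mb window whose median gene changed by the same amount (-0.25), and the part of the arm in its fall was not tested. The genes of the cytokinesis machinery itself had 10 of 54 tested members higher and 4 lower, with 4 and 4 in DESeq2 and a median of 0.051. Among them actin (ACTB) fell by 0.16 ± 0.031, lost with limma on log2(TPM + 1), alpha-actinin (ACTN1) by 0.29 ± 0.058 and profilin (PFN1) by 0.19 ± 0.035, and KIF20B, a kinesin of the midbody, rose by 0.21 ± 0.041.

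KIF18A, the kinesin on which many cells with extra chromosomes depend, had 59.3, 66.8 and 58.5 CPM after cytokinesis failure and 53.3, 56.4 and 58.7 CPM in control. It was not called, with a change of 0.13 ± 0.085. PLK4, the kinase that limits centriole duplication (-0.22 ± 0.15), KIFC1, the motor that clusters extra centrosomes (0.044 ± 0.085), LATS2, the Hippo kinase reported to respond to tetraploidy (-0.097 ± 0.17) and CCND1 (0.060 ± 0.040) were not called either. CCND2 and CDKN2A were too low to test. Of 39 tested centrosome genes 4 rose and none fell, and of 24 kinesins 3 rose and 1 fell. These are shares of 10.3% and 16.7%, against 17.0% of all genes tested.

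The G1 genes of the list moved both ways, 8 higher and 5 lower of 25 tested (3 and 3 in DESeq2, 4 and 3 without replicate 1 of cytokinesis failure, 3 and 5 without replicate 3 of control). CDKN1A (p21, chromosome 6, 36676463 to 36687332), an inhibitor of cyclin-dependent kinases, had 20.9, 19.6 and 25.2 CPM in the cytokinesis failure libraries, against 47.4, 54.7 and 48.1 CPM in control. The groups were apart and CDKN1A fell by 1.18 ± 0.11. CCNE1 (cyclin E1) fell by 0.44 ± 0.088 and CDK6 by 0.54 ± 0.074, while SKP2, the ubiquitin ligase part that targets CDK inhibitors, rose by 0.30 ± 0.066 and the inhibitor CDKN2D by 0.38 ± 0.084. DNA replication genes had 5 higher and 4 lower of 55 (1 and 1 in DESeq2), a share of 16.4%, near the 17.0% over all genes. Homologous recombination and Fanconi genes had none higher and 1 lower of 40, a lower share of 2.5%.

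In metabolism, called genes of the NRF2 list were mostly lower and those of the nuclear-encoded oxidative phosphorylation list mostly higher. Of 33 tested NRF2 targets and aldo-keto reductases 11 fell and 2 rose, with a median of -0.11. AKR1C2 had 166, 176 and 164 CPM after cytokinesis failure, against 342, 367 and 352 CPM in control, a change of -1.06 ± 0.048. AKR1C1 and AKR1C3 fell by 1.76 ± 0.16 and 1.25 ± 0.12. These steroid and aldehyde reductases are near-identical copies whose reads can be split between them, and they lie on 10p, where the median gene was lower. The part of the arm in their fall was not tested. Elsewhere in the response SLC7A11, the cystine importer, fell by 0.59 ± 0.055, thioredoxin reductase (TXNRD1) by 0.41 ± 0.048 and ferritin light chain (FTL) by 0.29 ± 0.031. SLC7A11 lies on 4q. Of 78 tested oxidative phosphorylation genes 26 rose and 4 fell, with a median of 0.089, and the rises were modest: NDUFV1 of complex I rose by 0.41 ± 0.067, NDUFA2 by 0.37 ± 0.067 and COX5B of complex IV by 0.31 ± 0.047. None of the 13 genes of the mitochondrial genome was tested.

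Lipid genes under SREBP control had 9 of 37 tested members higher and 1 lower, 4 and 1 in DESeq2. SCD, the desaturase that makes oleate, had 86.4, 64.4 and 76.1 CPM after cytokinesis failure, against 49.2, 47.7 and 46.6 CPM in control, and rose by 0.66 ± 0.092. The sterol reductase gene TM7SF2 rose by 1.0 ± 0.25 and the fatty acid desaturase FADS1 by 0.34 ± 0.064. The elongase ELOVL6 fell by 0.62 ± 0.11 and lies on 4q. Glycolytic and hypoxia genes had 4 higher and 5 lower of 42, a share of 21.4%, near the 17.0% of all genes tested. Among them HK2 fell by 0.95 ± 0.18, VEGFA fell by 1.02 ± 0.18 and ADM (adrenomedullin) rose by 0.63 ± 0.11. The S100 and annexin list had 7 of 16 tested members lower and none higher. S100A14 fell by 1.5 ± 0.18, ANXA10, on 4q, by 1.96 ± 0.46, S100A2 by 0.20 ± 0.030 and S100A16 by 0.23 ± 0.044.

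The remaining lists held fewer or divided calls. YAP and Hippo genes had 7 higher and 9 lower of 34 (2 and 8 in DESeq2 and without replicate 1 of control): CTGF (CCN2), a standard YAP target, fell by 1.02 ± 0.19 and WWTR1 (TAZ) by 0.49 ± 0.070, while TGFB2 rose by 0.73 ± 0.13. Interferon response genes had 7 higher and 1 lower of 45, with IFIT1 rising by 0.64 ± 0.12 and IFITM1 by 0.83 ± 0.18, and 4 and none in DESeq2 and without replicate 1 of either group. The share of interferon response genes called was 17.8%, near the 17.0% of all genes tested. TGF-beta and ID genes had 6 higher and 5 lower of 27, with ID1 (0.27 ± 0.036) among the higher and follistatin (FST, -0.73 ± 0.086) among the lower. Wnt genes had 5 higher and 3 lower of 23 (1 and 3 in DESeq2 and without replicate 1 of cytokinesis failure), with TCF7L1 rising by 0.94 ± 0.094, DKK1 falling by 0.59 ± 0.065 and SOX9 falling by 1.30 ± 0.29. In the oncofetal list 2 rose and 5 fell of 17, with SOX4 at 0.47 ± 0.063 and HMGA2 at -0.66 ± 0.080. Chaperones had 4 higher and 12 lower of 39, a balance that became 3 and 1 with limma on log2(TPM + 1), 3 and 6 without replicate 1 of cytokinesis failure and 3 and 5 without replicate 2 of control. Genes of the unfolded protein response and ATF4 had 6 higher and 6 lower of 31, proteasome subunits 2 and 5 of 34, ABC transporters 1 and 3 of 21, AHR and drug metabolism genes 3 and 6 of 23, cytosolic DNA sensing genes 1 and 1 of 11, and APOBEC genes 1 and none of 6. Shares called near the 17.0% of all genes were those of proteasome subunits (20.6%), ABC transporters (19.05%), cytosolic DNA sensing genes (18.2%) and APOBEC genes (16.7%). CYP1B1, an AHR target, fell by 0.68 ± 0.057, PHGDH of serine synthesis rose by 0.44 ± 0.062 and APOBEC3B, the cytidine deaminase linked to tumour mutation, rose by 0.94 ± 0.25.

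By chromosome position, the median gene of 4q and 10p was lower and that of 20q higher. On 4q 71 of 257 tested genes fell and 10 rose, with a median change of -0.16, while 4p had 7 and 7 of 130 and a median of 0.021. On 10p 28 of 104 fell and 2 rose, with a median of -0.15, and on 20q 11 of 208 fell and 38 rose, with a median of 0.089. Within 4q, 20 Mb windows had medians of -0.13 from 60 to 80 Mb, -0.093 from 80 to 100 Mb, -0.25 from 100 to 120 Mb, -0.16 from 120 to 140 Mb, -0.30 from 140 to 160 Mb, -0.14 from 160 to 180 Mb and -0.27 from 180 to 200 Mb. The medians were uneven along the arm, and each of these 7 windows was below 0. The window from 40 to 60 Mb, which spans the centromere and so holds genes of both arms, had 5 higher and 5 lower of 45 and a median of -0.00047. On chromosome 10 the first 20 Mb held 24 lower and no higher genes of 63, with a median of -0.24. In single libraries, the median 4q gene lay -0.15, -0.17 and -0.16 from the control mean after cytokinesis failure, and -0.014, 0.025 and 0.0017 in control. The groups did not overlap. The slippage libraries lay at -0.070 to -0.095 and the fusion libraries at -0.026 to -0.051, so all 3 doubled populations were below control on this arm. Against the shared control libraries the median 4q change was -0.16 for cytokinesis failure, -0.086 for slippage and -0.064 for fusion. In the same order, the medians were -0.15, -0.14 and -0.099 on 10p, and 0.089, 0.044 and 0.039 on 20q. The part of the arms in the falls of the named 4q and 10p genes was not tested. DNA copy number was not analysed here.

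**Figure D4:**
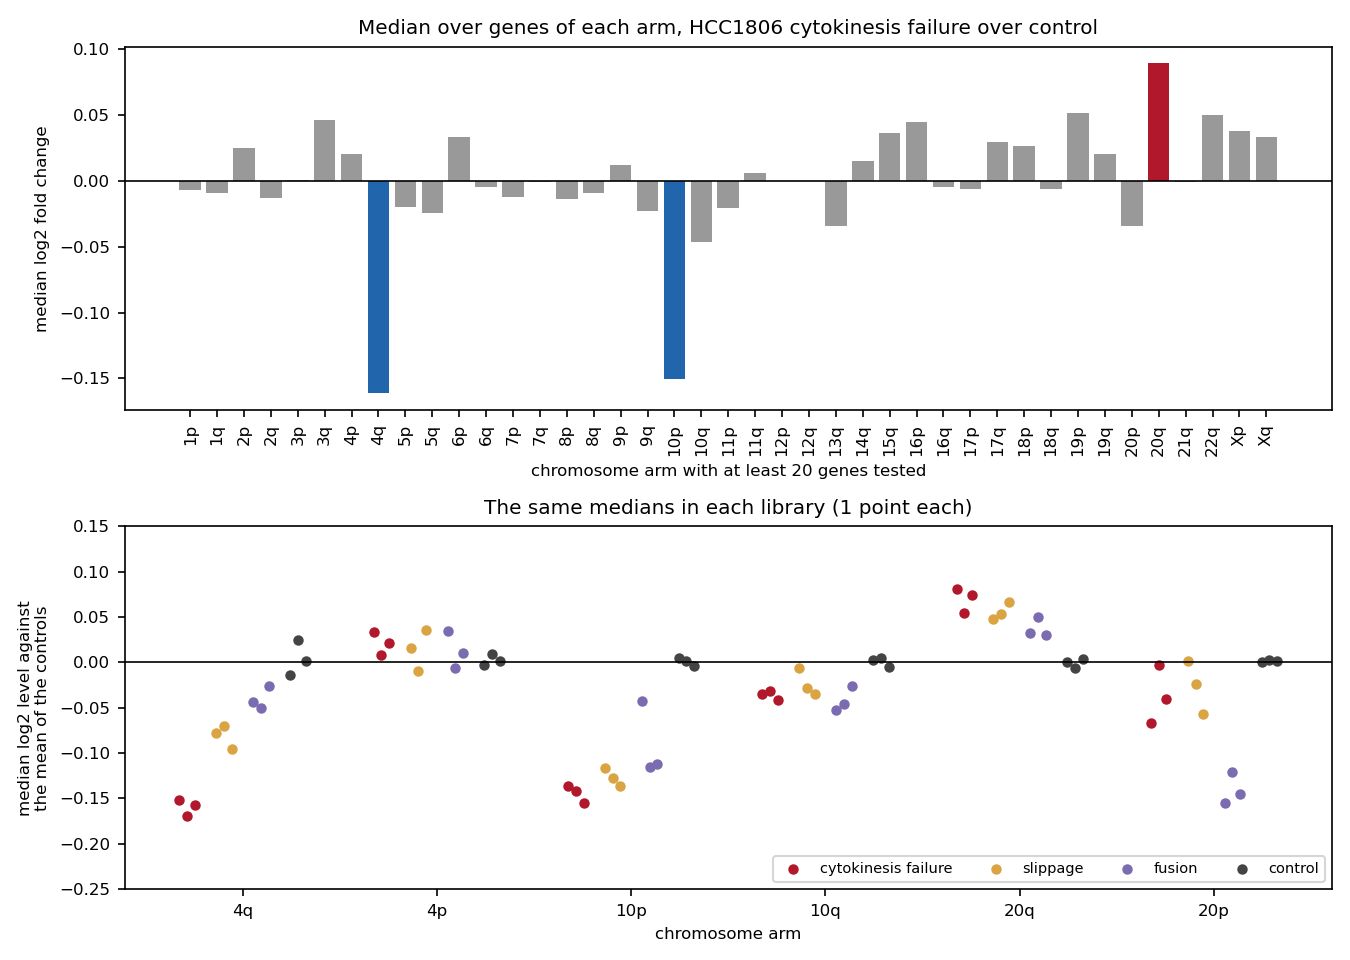
Upper panel: median log2 fold change of cytokinesis failure over control for each chromosome arm with at least 20 tested genes. Lower panel: the median log2 level of the genes of 6 arms in each library relative to the control mean, 1 point per library, 3 per population. On 4q the cytokinesis failure libraries lie at -0.15 to -0.17, below slippage (-0.070 to -0.095) and fusion (-0.026 to -0.051), which lie below control (-0.014 to 0.025). On 10p all 3 doubled populations also lie below control.

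Set against the other routes in HCC1806, cytokinesis failure differed from slippage at 780 genes (6.80%), 312 higher (2.72%) and 468 lower (4.08%), and from fusion at 2055 (17.9%), 1027 higher and 1028 lower (8.96% each). These comparisons share the cytokinesis failure libraries with the one against control, so their values are given side by side only. ERK feedback genes were lower than in slippage for 8 of 17 members with none higher, and lower than in fusion for 9 with 1 higher. Immediate early genes were lower than in slippage for 8 of 21 with 1 higher, and lower than in fusion for 9 with none higher. DUSP6 averaged 30.8 ± 7.28 CPM after cytokinesis failure, 65.7 ± 2.31 CPM after slippage and 88.9 ± 2.90 CPM after fusion, with log2 differences of -1.10 ± 0.10 from slippage and -1.53 ± 0.094 from fusion. MYC differed by -0.63 ± 0.078 and -0.78 ± 0.077, FOSL1 by -0.84 ± 0.085 and -0.89 ± 0.085, and AREG by -0.75 ± 0.076 and -0.75 ± 0.076, all called. For EGR1 the difference from slippage was not called (-1.16 ± 0.42, edgeR adjusted p = 0.0847), and that from fusion was (-1.45 ± 0.40).

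The genes furthest below slippage included TNFAIP3 (-2.17 ± 0.22), DHRS9 (-1.71 ± 0.25), SERPINB2 (-1.70 ± 0.16), PTGS2 (-1.57 ± 0.22), SLC16A9 (-1.52 ± 0.31) and KLK10 (-1.41 ± 0.20). TNFAIP3 had 3.98, 4.96 and 2.96 CPM after cytokinesis failure, against 21.0, 16.9 and 15.6 CPM after slippage. The genes furthest from slippage and from fusion were likewise named only where the libraries of the groups did not overlap. Above slippage were METTL7A (1.39 ± 0.21), TMEM159 (1.26 ± 0.25), BOLA1 (1.15 ± 0.28) and the nicotinic acid receptor HCAR2 (1.04 ± 0.23). KRT14 was 1.17 below slippage and 1.21 below fusion on the log2 scale, LAMB3 0.56 and 0.57 below, and CDKN1A 0.55 and 0.53 below, all called. Some falls against control were shared by the doubled populations. CDKN1A changed by -0.63 ± 0.11 after slippage and -0.65 ± 0.11 after fusion, and EGR1 by -1.52 ± 0.29 and -1.225 ± 0.28. DHRS9 changed by -0.96 ± 0.18 and -1.17 ± 0.18, and CCNE1 by -0.34 ± 0.089 and -0.49 ± 0.092, all called. DUSP6 was called lower after slippage (-0.51 ± 0.081) but not after fusion (-0.079 ± 0.077). Against fusion the largest higher genes were DKK3, a secreted Wnt modulator, with 12.4, 11.5 and 12.1 CPM after cytokinesis failure and 0.590, 0.871 and 0.305 CPM after fusion (4.26 ± 0.37), TNC (3.45 ± 0.31), SOX6 (2.99 ± 0.39), the phosphatase PTPRG (2.92 ± 0.44) and the deiodinase DIO2 (2.28 ± 0.12). DKK3 had 7.35, 6.63 and 9.31 CPM in control. Against control it changed by 0.61 ± 0.21 after cytokinesis failure, a call lost in DESeq2, and by -3.65 ± 0.42 after fusion. DIO2 changed against control by 0.97 ± 0.095 after cytokinesis failure and by -1.31 ± 0.14 after fusion. Lower than in fusion were the neurofilament NEFH (-2.73 ± 0.23), HAS2 (-2.59 ± 0.15), MMP1 (-2.47 ± 0.088), FYB (-2.35 ± 0.11) and the germ cell cyclin CCNA1 (-2.28 ± 0.16). Luminal genes were higher than in fusion for 14 of 27 members and lower for 2, and higher than in slippage for 6 and lower for 2. Oxidative phosphorylation genes were lower than in fusion for 10 of 78 members and higher for 2, and higher than in slippage for 4 and lower for 1. Of all genes tested, 8.96% were called in each direction against fusion. Against control, 31 of the oxidative phosphorylation genes rose and 2 fell after fusion, and 12 rose and none fell after slippage. Over all 11467 tested genes, 611 rose and 636 fell after fusion, and 175 rose and 207 fell after slippage.

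The response to cytokinesis failure differed between the lines. In the fit of all 24 libraries the change in HCC1806 minus the change in MDA-MB-231 was called for 820 of 12563 genes (6.53%), 416 with a more positive change in HCC1806 (3.31%) and 404 with a more negative one (3.22%). In MDA-MB-231 itself 649 genes were called against its control (5.17%), 306 higher (2.44%) and 343 lower (2.73%). ERK feedback genes had a more negative change in HCC1806 for 9 of 17 members and a more positive one for 1. Immediate early genes were more negative for 10 of 21, urokinase system genes for 7 of 13 and adhesion genes for 12 of 38, with 3 adhesion genes more positive. DUSP6 changed by -1.61 in HCC1806 and by 0.097 in MDA-MB-231, where it had 492, 444 and 431 CPM after cytokinesis failure and 400.1, 423 and 451 CPM in control. The difference was -1.71 ± 0.11. AREG differed by -1.01 ± 0.11, EREG by -1.43 ± 0.12, FOSL1 by -1.10 ± 0.11, LAMB3 by -1.28 ± 0.091 and MYC by -0.89 ± 0.12.

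Some genes were called in opposite directions. CDKN1A had 144, 155 and 149 CPM in the MDA-MB-231 cytokinesis failure libraries, against 89.8, 88.7 and 85.1 CPM in its control, a rise of 0.77 ± 0.067 where HCC1806 showed a fall, and the difference was -1.95 ± 0.12 (edgeR adjusted p = 2.18e-22). MMP1 and HAS2 rose in MDA-MB-231 by 1.70 ± 0.44 and 0.90 ± 0.18. IFIT1, a sensor of foreign RNA, rose in HCC1806 and fell in MDA-MB-231 by 0.79 ± 0.090, a difference of 1.43 ± 0.15. Interferon response genes had a more positive change in HCC1806 for 10 of 45 members, with none opposite (in MDA-MB-231 itself 12 fell and none rose), and oxidative phosphorylation genes for 14 of 78 with none opposite. FZD8, a Wnt receptor, and TLR4, the lipopolysaccharide receptor, fell in HCC1806 by 1.18 ± 0.20 and 1.26 ± 0.30 and rose in MDA-MB-231 by 0.95 ± 0.17 and 0.73 ± 0.19.

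**Figure D5:**
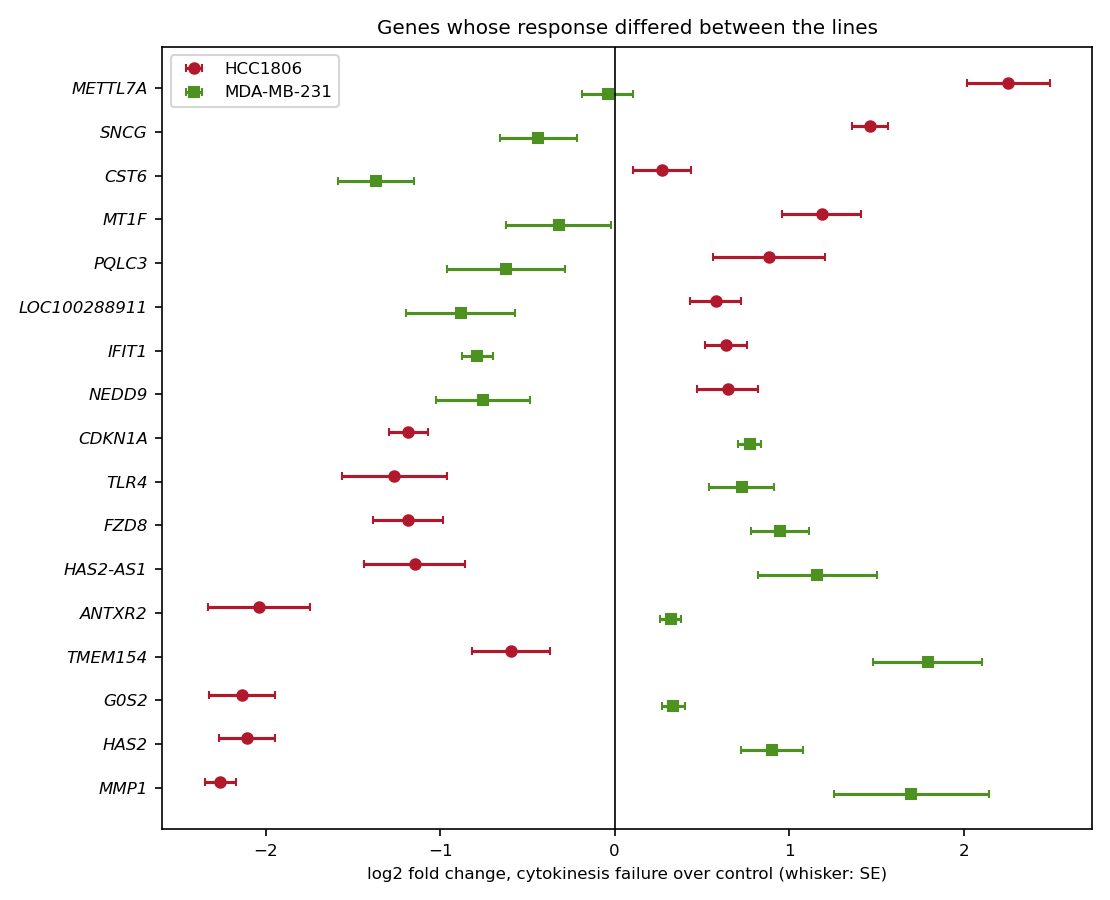
Log2 fold change of cytokinesis failure over control in HCC1806 (red circles) and MDA-MB-231 (green squares) for the named genes whose change differed most between the lines, and for CDKN1A, with the SE as whisker. METTL7A lies at 2.25 in HCC1806 and -0.039 in MDA-MB-231, and MMP1 at -2.26 and 1.70.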

How the data were processed

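HCC1806 and MDA-MB-231 populations were profiled by 3′ tag RNA sequencing (TAGseq) with 100-base single reads of polyadenylated RNA, per the labels' protocols. The submitters' processing notes name STAR and Salmon and the build GRCh38. Versions, the annotation, strand handling and any use of molecular identifiers are not given in the sources used here, so overlapping and antisense genes are uncertain. The authors deposited estimated counts per gene and, as a separate table, TPM for the same 29744 genes (53 names occur more than once). Of the deposited estimated counts 4.41% were not whole, and all were rounded. All 24 columns were matched to labelled samples.

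Counts of the 12 HCC1806 libraries were fitted together in 4 groups with edgeR 4.0.16 in R 4.3.3 (filterByExpr, TMM, robust quasi-likelihood test). SE is the fold change divided by the square root of F. The biological coefficient of variation was 3.88%. The line difference came from a fit of all 24 libraries, as did MDA-MB-231 values. Medians and counts describe the 43 gene lists, with no set test. Members, lists and named genes were chosen with earlier results of these data known. Genes named are, by rule, the 20 largest called changes per direction against control (mean log2 CPM 2 or more, groups apart), the 6 members per list that had the lowest adjusted p, 12 fixed genes, and 8 per direction in the other comparisons. LAMA3, PLEC, ITGB4, DST, ITGB1, LAMB1, KRT5, KRT17, SPRR1B, PKP1, TP63, CEACAM6, DUSP10, ETV4, ERRFI1, MAFF, THBD and LRRC38 were named after their values were seen. A few genes and results under this rule are left out. Positions and promoter windows came from RefSeq on GRCh38.p14, which placed 97.7% of tested genes. Alternatives were DESeq2 1.42.0, RLE factors, filters of none, 1 CPM and 5 CPM in 3 libraries (the last added after seeing the data), the 6 compared libraries alone, limma 3.58.1 on log2(TPM + 1) and log2(TPM + 0.1), leaving out each replicate, and a replicate block. On data simulated for this comparison (11351 genes) the test recovered 68 of 100 genes shifted by 0.5 (log2) and 98 of 100 shifted by 1, and 9 of its 175 calls were false. The shifted genes were drawn above a minimum mean count, and all genes were given the same dispersion. Recovery of genes with few counts, and differences in spread between genes, were therefore not covered. The labels do not say whether replicates were separate cultures, so p-values measure only the spread between these libraries. The study's low-pass genome sequencing was not analysed here.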

Additional observations from a re-analysis of the deposited data

Results flagged for a closer look

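The effect of cytokinesis failure differed between HCC1806 and MDA-MB-231 for 820 genes in edgeR's test of the difference itself, and the 8 largest per direction among those named by rule are listed by value. All are changes in HCC1806 minus changes in MDA-MB-231 on the log2 scale. More positive in HCC1806 were METTL7A (2.30), SNCG (1.91), CST6 (1.64), MT1F (1.51), PQLC3 (1.51), LOC100288911 (1.47), IFIT1 (1.43) and NEDD9 (1.41). CST6, a cysteine protease inhibitor, was not called in HCC1806 (0.27 ± 0.16) and fell in MDA-MB-231 (-1.37 ± 0.22), so only the change in MDA-MB-231 was called. The PQLC3 difference lost its call when any of 7 single libraries was left out (1.25 to 1.48), 1 of them replicate 3 of HCC1806 cytokinesis failure. IFIT1, LOC100288911 and NEDD9 rose in HCC1806, by 0.64 ± 0.12, 0.58 ± 0.15 and 0.65 ± 0.17, the NEDD9 call being lost in DESeq2, in both TPM fits and without replicate 1 of cytokinesis failure. More negative in HCC1806 were MMP1 (-3.96), HAS2 (-3.01), G0S2 (-2.47), TMEM154 (-2.38), ANTXR2 (-2.36), HAS2-AS1 (-2.31), FZD8 (-2.13) and TLR4 (-1.99). HAS2-AS1 is the antisense partner of HAS2, and since strand handling is not stated its reads may include those of HAS2. TMEM154 and ANTXR2 lie on 4q and FZD8 on 10p, where the median HCC1806 gene was lower, and the part of these arms in these differences was not tested. In the window of FZD8, from 20 to 40 Mb, 4 of 41 tested genes fell and 2 rose in HCC1806, with a median change of -0.030. MMP1 was measured in MDA-MB-231 at 5.89, 3.43 and 4.09 CPM after cytokinesis failure and 1.10, 1.49 and 1.29 CPM in control, few reads behind a large fold.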

How the results depend on the processing

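The 1950 calls against control became 975 in DESeq2 and 1267 with limma on log2(TPM + 0.1), and ran from 1368 to 1653 when 1 replicate was left out. Against slippage 780 became 298 in DESeq2, 372 and 349 with limma on log2(TPM + 1) and log2(TPM + 0.1), and 421 (without replicate 1 of cytokinesis failure) to 620 when a replicate was left out, with 476 without replicate 2 of slippage. Against fusion 2055 became 1096 in DESeq2, with 1168 higher and 328 lower on log2(TPM + 1), and 1498 to 1865 without 1 replicate. The line difference of 820 became 515 in DESeq2 and 641 to 757 without 1 replicate. Same-numbered replicates of cytokinesis failure and control did not deviate together (correlations of -0.035 to -0.0040), and a replicate block gave 1941, 773, 2042 and 763 calls. EGFR (log2 change -0.030 to 0.12 with 1 replicate left out, negative without replicate 3 of cytokinesis failure) and KIFC1 (-0.056 to 0.11, negative without replicate 1 of control) changed sign and were not called in any of these fits. Of 272 called named genes 59 lost the call in DESeq2, 50 on log2(TPM + 1), 53 on log2(TPM + 0.1) and 22 to 35 without 1 replicate, and none changed direction. Depth limits genes of a few CPM, and the unstated origin of the replicates limits all comparisons.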

Other observations

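LRRC38, an auxiliary subunit of potassium channels, had 0, 0 and 0.247 CPM in the cytokinesis failure libraries and 4.90, 6.30 and 6.21 CPM in the control libraries. Its mean level was below the minimum for named genes, it was chosen after its values were seen, and the single cytokinesis failure library with reads gives no useful fold.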
